A study of Mus musculus and Rattus norvegicus with 12 samples.

Results

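The 10 genes described here code for proteins best known from endothelial cells, the lining of blood vessels: the growth factors Vegfa and Vegfc, the receptors Kdr, Flt1, Tek, Tie1 and Eng, and the junction proteins Cdh5, Pecam1 and Esam. They were picked by gene symbol from gene-level RNA-seq counts, and are 10 of the 24411 symbols in the mouse tables and 10 of the 17315 symbols in the rat tables. RNA came from 12 cell lines derived from blastocysts, each a separately derived line: 3 mouse pXEN lines (pXEN2, pXEN4, pXEN6), 3 mouse XEN lines (XEN1, XEN2, XEN5), 2 mouse ES lines (ES2, ES3) and 4 rat XENP lines (CX1, MAX2, MAX3, MAX8). All mouse lines were of the ICR strain. Of the rat lines, CX1 and MAX8 were WKY and MAX2 and MAX3 were F344. The lines pXEN2, XEN2, XEN5, ES2, CX1 and MAX3 were male and the others female, so sex was not balanced between pXEN and XEN lines. No line is described as genetically modified or drug-treated beyond its culture medium. XEN (extraembryonic endoderm) cells were grown on mouse embryo fibroblasts with 20% fetal bovine serum, and ES (embryonic stem) cells with 15% serum, LIF and the inhibitor pair called 2i. Both pXEN and XENP cells had a protocol in common, for which the labels give no serum content. Cells were collected 2 days into culture in the medium that maintains each type. Cell type and medium therefore differ together between the groups and cannot be told apart, and each group stands for 2 to 4 lines. The labels list a pair of passage numbers for each line and do not say whether these were pooled.

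In vessels, VEGF ligands bind the receptor tyrosine kinases Kdr and Flt1, angiopoietins bind Tek, to which Tie1 is a related partner, and Eng is an accessory receptor for ligands of the TGF-beta and BMP family. Cdh5 (VE-cadherin), Pecam1 and Esam sit at contacts between endothelial cells. Several of these genes are not restricted to endothelium: Vegfa is made by many cell types, Pecam1 and Eng are also known from pluripotent cells, and the yolk sac endoderm, to which XEN cells are related, lies next to the first blood vessels of the embryo.

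Gene counts were between 2661691 and 3483069 per mouse line and between 1047535 and 1242937 per rat line. The precursor of ribosomal RNA, Rn45s, took 20.7% to 50.1% of the mouse counts. Levels are given as CPM, a gene's count scaled to the size of the line's library. A single count was worth 0.264 to 0.411 CPM in the mouse lines and 0.805 to 0.955 CPM in the rat lines, so members under a few CPM rest on few molecules. Members were tested between mouse groups with edgeR's quasi-likelihood test over 10895 genes, with p-values adjusted by the Benjamini-Hochberg method, and a member was called when the adjusted p was under 0.05. In bulk RNA, fewer cells with a transcript and less of it per cell cannot be told apart. The spread within a group is the spread between lines.

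The members did not move as a set. Of the 9 members with enough counts to be tested, 7 were called in pXEN against ES lines: Vegfa, Tek, Cdh5 and Esam were higher in pXEN, and Vegfc, Eng and Pecam1 were lower. In XEN against ES lines 6 were called, with Vegfa, Tek and Cdh5 higher in XEN, and Vegfc, Eng and Pecam1 lower. Between pXEN and XEN lines 2 were called, Esam higher and Flt1 lower in pXEN. Over all genes tested, the call rate was 35.9% for pXEN against ES (18.2% higher, 17.8% lower), 38.4% for XEN against ES (20.7% higher, 17.8% lower) and 4.55% for pXEN against XEN (0.918% higher, 3.63% lower). The lines of the groups did not overlap for 8 of the 10 members in pXEN against ES, for 8 in XEN against ES and for 2 in pXEN against XEN, where the same was true of 62.8%, 63.3% and 19.8% of all genes tested. The median log2 fold change of the 9 tested members was 1.24, 2.60 and -0.41 in the 3 comparisons, and that of all genes was -0.03, 0.00 and 0. Tie1 did not have enough counts in the mouse lines to be tested. Members that are near 0 in all but 1 group passed the filter on low counts through that group alone, so these counts describe the members and support nothing more. Both comparisons with ES share the same 2 ES lines and are given side by side.

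**Figure D1:**
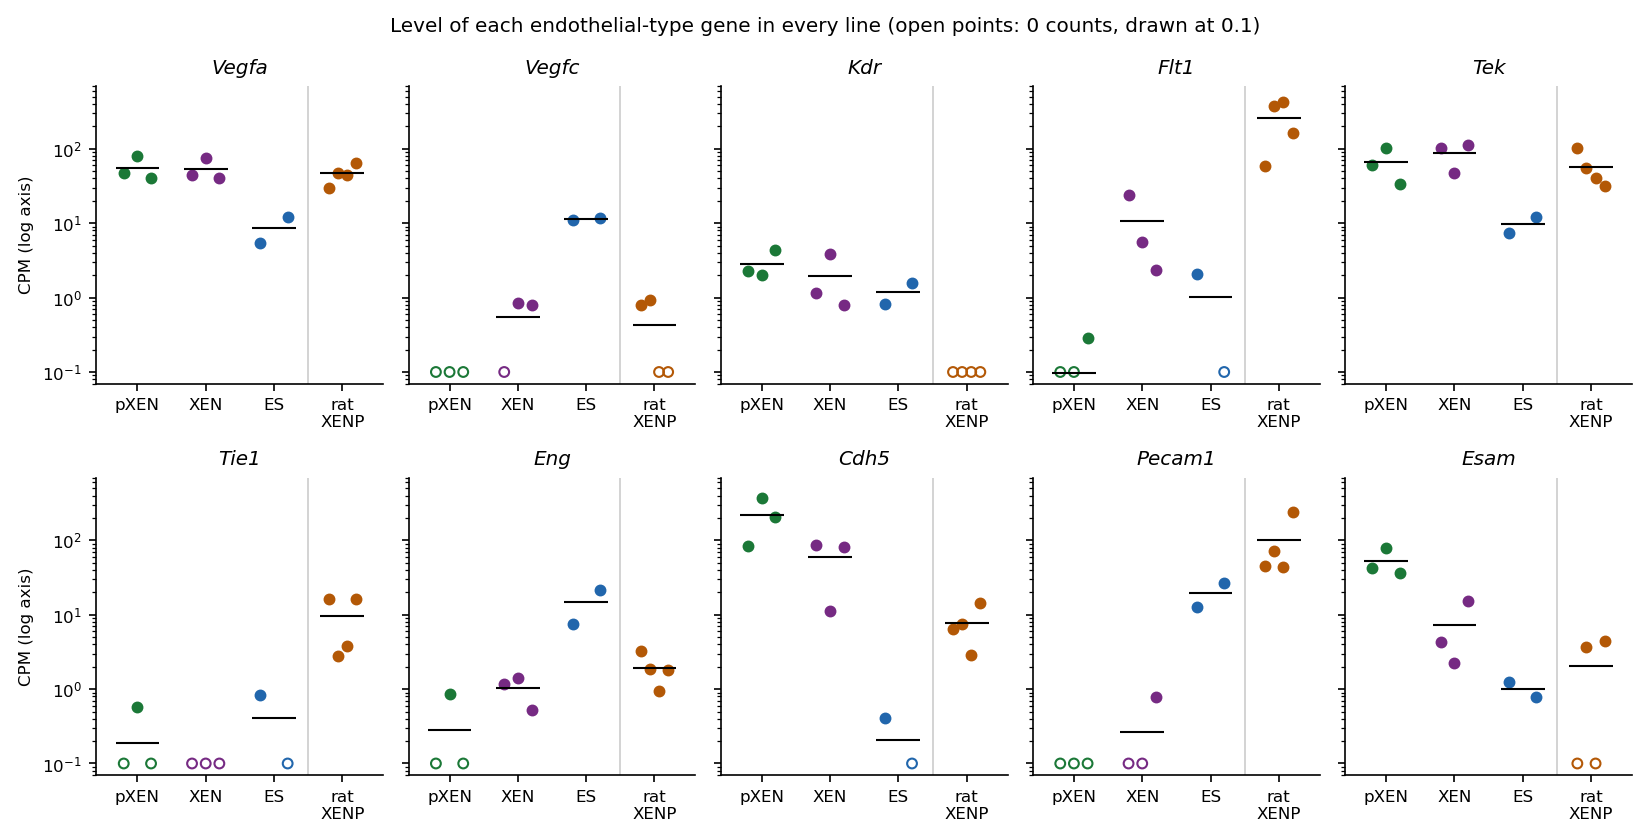
CPM (log axis) of the 10 members in each line, with 1 point per line, a bar at the group mean and open points at 0.1 for lines with 0 counts; rat CPM was computed on the rat tables and is not scaled to the mouse lines. Vegfa and Tek lie higher in pXEN and XEN than in ES lines, Vegfc, Eng and Pecam1 lie higher in ES lines, and Flt1 and Pecam1 are highest in the rat lines.

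Vegfa codes for the main growth factor of vessel formation and lies on the minus strand of chromosome 17 (GRCm38, chr17:46016993-46032369). Its level was 46.7, 80.0 and 40.2 CPM in pXEN2, pXEN4 and pXEN6, 44.8, 74.8 and 40.4 CPM in XEN1, XEN2 and XEN5, and 5.35 and 12.1 CPM in ES2 and ES3. Every pXEN and XEN line was above both ES lines, and the pXEN and XEN ranges lay over each other. Vegfa was 6.34-fold higher in pXEN than in ES lines (adjusted p = 0.00146, log2 fold change 2.66 ± 0.47 SE). It was 6.08-fold higher in XEN than in ES lines (adjusted p = 0.00173, 2.60 ± 0.47). Without ES3, the ES line with more Vegfa, these log2 fold changes were 3.38 and 3.31, and without ES2 they were 2.21 and 2.15. Between pXEN and XEN lines the log2 difference was 0.06, with a 95% interval from -0.63 to 0.75 and an adjusted p of 0.982.

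Vegfc codes for the growth factor best known for lymphatic vessels and lies on the plus strand of chromosome 8 (chr8:54077606-54187096). It had 0 counts in all 3 pXEN lines. XEN1 also had 0, while XEN2 and XEN5 had 0.834 and 0.793 CPM. Levels in ES2 and ES3 were 11.1 and 11.7 CPM, a smaller relative spread than that of any other member in the ES lines. Against a floor of 3 counts over the pXEN group, Vegfc was at least 38.1-fold lower in pXEN than in ES lines (adjusted p = 0.000584). In XEN lines it was 18.2-fold lower than in ES lines (log2 fold change -4.19 ± 0.77 SE, adjusted p = 0.00266). So the ligands differed from ES lines in opposite directions, in pXEN and in XEN lines.

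The sequences before the start sites of these ligands are shown with those of a receptor pair that also differed from ES lines in opposite directions, Tek and Eng, and of Flt1, which separated the pXEN, XEN and rat lines. A promoter entry was found for 7 of the 10 members and not for Cdh5, Pecam1 and Esam. Each stretch is the last 120 bases before the RefSeq start of the first listed promoter, on the gene's own strand, 5′ to 3′, in GRCm38.p6, and capitals mark the letters GGAAG, the core bound by ETS factors, on either strand (CTTCC on the other).
Vegfa: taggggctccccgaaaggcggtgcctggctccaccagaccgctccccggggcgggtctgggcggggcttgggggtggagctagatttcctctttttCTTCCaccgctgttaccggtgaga
Tek: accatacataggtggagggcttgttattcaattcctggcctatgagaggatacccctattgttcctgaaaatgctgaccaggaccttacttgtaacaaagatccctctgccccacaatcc
Vegfc: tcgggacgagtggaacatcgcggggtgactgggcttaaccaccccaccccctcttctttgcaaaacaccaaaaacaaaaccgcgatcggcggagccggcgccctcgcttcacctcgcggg
Eng: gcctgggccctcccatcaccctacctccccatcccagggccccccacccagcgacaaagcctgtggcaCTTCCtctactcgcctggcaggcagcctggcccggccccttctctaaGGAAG
Flt1: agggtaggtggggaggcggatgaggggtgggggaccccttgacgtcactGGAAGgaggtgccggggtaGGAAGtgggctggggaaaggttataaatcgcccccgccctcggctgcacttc
They lie at chr17:46032378-46032497 (Vegfa, minus strand), chr4:94739169-94739288 (Tek, plus), chr8:54077412-54077531 (Vegfc, plus), chr2:32646475-32646594 (Eng, plus) and chr5:147726012-147726131 (Flt1, minus).

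In the whole RefSeq window, 250 bases before to 50 bases after the start, GGAAG was found on either strand in 5 of the 7 members (Vegfa, Kdr, Flt1, Tie1 and Eng), and in 71.4% of the 32851 mouse promoters of that length. The core of the GATA factors, with the letters GATAAG, was found in Tek alone, 38 bases after its start, and in 7.44% of all promoters. The hypoxia core ACGTG was found in Vegfa alone, in the second of its 2 listed promoters, and in 19.6% of all promoters. The SOX letters ACAATG were in none of the 7 windows and in 12.6% of all. All were searched on both strands, and a match is a description of the letters, not of a bound site. Members that were higher than in ES lines and members that were lower are both found with and without the ETS letters, since Tek and Vegfc have none. Base composition also varied: the Vegfc window held 35 CpG dinucleotides, Flt1 29, Kdr 19, Vegfa 16, Tie1 7, Eng 6 and Tek 3, around a median of 7 over all promoters (quartiles 3 and 20).

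Kdr, the main signalling receptor for Vegfa, lies on the minus strand of chromosome 5 (chr5:75932827-75978458). Its level was low in every mouse line: 2.30, 1.99 and 4.30 CPM in the pXEN lines, 1.17, 3.89 and 0.793 CPM in the XEN lines, and 0.822 and 1.56 CPM in the ES lines. The pXEN lines were all above the ES lines by a small margin, and the XEN lines were on both sides of them. No difference was called: the log2 fold change was 1.24 ± 0.87 SE for pXEN against ES (95% interval -0.47 to 2.94, adjusted p = 0.292), 0.71 for XEN against ES (adjusted p = 0.556) and 0.53 for pXEN against XEN (adjusted p = 0.809). With 29, 20 and 6 counts in the groups, the depth leaves a wide interval.

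Flt1, the receptor that binds Vegfa tightly and is also made in a soluble form, lies on the same chromosome (chr5:147561604-147726011, minus strand). The pXEN lines had 0, 0 and 0.287 CPM, which was 1 count in all. In XEN1, XEN2 and XEN5 the level was 23.8, 5.56 and 2.38 CPM, a 10.0-fold range between lines of 1 group. ES2 had 2.06 CPM and ES3 had 0. Every XEN line was above every pXEN and ES line, but XEN5 and ES2 were close, with 9 and 5 counts. Their 95% counting intervals overlapped (1.09 to 4.51 CPM in XEN5 and 0.668 to 4.80 CPM in ES2). The ratio of XEN to pXEN levels was 90.8, with an exact 95% interval for counting error of 15.9 to 3626, and the difference was called (adjusted p = 0.0319). That call was lost without any 1 of the 3 pXEN lines (adjusted p = 0.126 without pXEN2, 0.111 without pXEN4 and 0.138 without pXEN6), and without XEN1 or XEN2 Flt1 did not pass the filter on low counts. Against ES lines, XEN lines gave a log2 fold change of 3.31 ± 1.26 SE that was not called (adjusted p = 0.0610). DESeq2's Wald test called it (adjusted p = 0.0300), as did the edgeR fit without XEN5 (0.0293). It was not called without ES3 (log2 fold change 2.31, adjusted p = 0.251), when XEN and ES lines alone were fitted (0.104) or without ES2 (0.0587), where the remaining ES line is at 0 and the fitted value of 8.06 depends on the prior count. In pXEN against ES lines Flt1 was not called (adjusted p = 0.270).

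The XEN libraries also differed from the pXEN libraries in genes of fibroblasts, the cells on which XEN lines were grown. The summed level of 19 fibroblast markers was 639, 660 and 758 CPM in XEN1, XEN2 and XEN5, and between 47.8 and 78.6 CPM in pXEN lines and 16.0 and 19.3 CPM in ES lines. All 19 were detected in each XEN line, while 9 of them, Col1a2, Col3a1, Dcn and Lum included, were at 0 in every pXEN line. Of the 18 that could be tested, 16 were lower in pXEN than in XEN lines, as were 3.63% of all genes tested. Markers near 0 in pXEN and ES lines passed the filter on low counts through the XEN lines alone, so this count only describes them. XEN1 had the most Flt1 and the lowest fibroblast sum of the XEN lines, and XEN5 had the least Flt1 and the highest sum. These sums lay close together, and an order over so few lines cannot show whether Flt1 follows feeder RNA. The part of feeder cell RNA in any XEN level was not tested.

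Tek, the angiopoietin receptor also called Tie2, lies on the plus strand of chromosome 4 (chr4:94739289-94874976). Its level was 60.9, 104 and 33.3 CPM in the pXEN lines, 102, 47.8 and 114 CPM in the XEN lines, and 7.40 and 12.1 CPM in the ES lines. Both endoderm groups were above the ES lines without overlap, and they overlapped with each other. Tek was 6.73-fold higher in pXEN than in ES lines (adjusted p = 0.00489, log2 fold change 2.75 ± 0.58 SE). In XEN lines it was 8.97-fold higher than in ES lines (adjusted p = 0.00266, 3.17 ± 0.59). Without ES2 the first of these was no longer called (adjusted p = 0.0583). The pXEN lines differed from the XEN lines by -0.41 on the log2 scale, with a 95% interval from -1.26 to 0.43 (adjusted p = 0.743).

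Tie1, the orphan relative of Tek on the same chromosome (chr4:118471191-118490061, minus strand), was close to absent from the mouse lines. It had 2 counts in pXEN4, 2 counts in ES2 and 0 in the other 6 mouse lines. The 0 counts of the 3 XEN lines allow a mean level of up to 0.302 CPM, for counting error only. Tek and its relative therefore stood far apart in the same lines.

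Eng (endoglin) lies on the plus strand of chromosome 2 (chr2:32646595-32682669), and its 3′ end overlaps the oppositely directed gene Fpgs by 61 bases. ES2 and ES3 had 7.40 and 21.8 CPM, a 2.95-fold range. The XEN lines had 1.17, 1.39 and 0.528 CPM, and the pXEN lines 0, 0.854 and 0 CPM. All 6 endoderm lines were below both ES lines. The ratio of ES to pXEN levels was 49.5, with an exact 95% counting interval of 16.3 to 246 (3 counts in pXEN, adjusted p = 0.00104). XEN lines were 13.9-fold lower than ES lines (log2 fold change -3.80 ± 0.80 SE, adjusted p = 0.00372), a call that was lost without ES3 (log2 fold change -2.82, adjusted p = 0.0851). The fitted log2 fold change for pXEN against ES moved from -5.45 to -8.49 without pXEN4, which held all 3 pXEN counts, and to -4.46 without ES3.

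Cdh5, the cadherin of endothelial adherens junctions, lies on the plus strand of chromosome 8 (chr8:104101625-104144511). Levels were 83.9, 372 and 208 CPM in pXEN2, pXEN4 and pXEN6, and 86.1, 11.1 and 80.6 CPM in XEN1, XEN2 and XEN5. ES2 had 1 count (0.411 CPM) and ES3 had 0. Every pXEN and XEN line was above the ES lines, and within groups the highest line exceeded the lowest by 4.44-fold in pXEN and by 7.74-fold in XEN, where XEN2 was the low line. The ratio of pXEN to ES levels was 1139, with an exact 95% counting interval of 204 to 45004 (adjusted p = 0.00476). For XEN against ES lines the ratio was 284, with an interval of 50.8 to 11251 (adjusted p = 0.0130). The size of both ratios depends on the single ES count. Without ES3 the adjusted p was 0.0514 for pXEN and 0.0956 for XEN, and without ES2 it was 0.0865 for XEN. The mean of the pXEN lines was 3.75 times that of the XEN lines on the fitted scale (log2 difference 1.91, 95% interval 0.34 to 3.47), but pXEN2 lay inside the XEN range and the difference was not called (adjusted p = 0.322). The antisense gene Gm29682, which overlaps Cdh5 by 4249 bases, had 0 counts in every mouse line.

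Pecam1, an adhesion protein of endothelial cells, platelets and leukocytes, lies on the minus strand of chromosome 11 (chr11:106654217-106750628). ES2 and ES3 had 12.7 and 26.9 CPM. All 3 pXEN lines had 0 counts, as had XEN1 and XEN2, and XEN5 had 3 counts (0.793 CPM). Pecam1 was at least 66.3-fold lower in pXEN than in ES lines, against the floor of 3 counts over the group (adjusted p = 0.000475). For XEN lines the ratio of ES to XEN was 66.3, with an exact 95% counting interval of 22.1 to 327 (adjusted p = 0.000997). DESeq2's Wald test did not call the XEN difference (adjusted p = 0.0597). In the fit without XEN5, which held all 3 counts, the log2 fold change went from -5.89 to -8.91. Vegfc, Eng and Pecam1, the 3 members lower in endoderm lines than in ES lines, together left a ligand, an accessory receptor and a junction protein at or near 0 in lines where Vegfa, Tek and Cdh5 were well above it.

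Esam, an adhesion protein of endothelial cells and platelets found at tight junctions, lies on the plus strand of chromosome 9 (chr9:37528078-37538319). The pXEN lines had 42.1, 78.6 and 36.2 CPM. The XEN lines had 4.29, 2.22 and 15.3 CPM, and the ES lines 1.23 and 0.779 CPM. The groups stood in the order pXEN, XEN, ES without overlap. Esam was 50.3-fold higher in pXEN than in ES lines (log2 fold change 5.65 ± 0.97 SE, adjusted p = 0.00191). It was also higher in pXEN than in XEN lines, by 7.01-fold (2.81 ± 0.61, adjusted p = 0.0331). The second call was lost without pXEN2 (adjusted p = 0.0671), without pXEN4 (0.0649), without XEN1 (0.125), with no filter on low counts (0.0705), with the sex of the lines as a term (0.0898) and when pXEN and XEN lines alone were fitted (0.0777). Without XEN5, the XEN line with the most Esam, the log2 difference was 4.03. XEN against ES lines gave 2.84 ± 1.02, just short of a call (adjusted p = 0.0541). The same difference was called by DESeq2's Wald test (0.00802), without XEN2 (0.0122) and when XEN and ES lines alone were fitted (0.0470). Without XEN5 its log2 fold change was 1.62 (adjusted p = 0.119), and the adjusted p was 0.181 without ES2 and 0.235 without ES3.

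**Figure D2:**
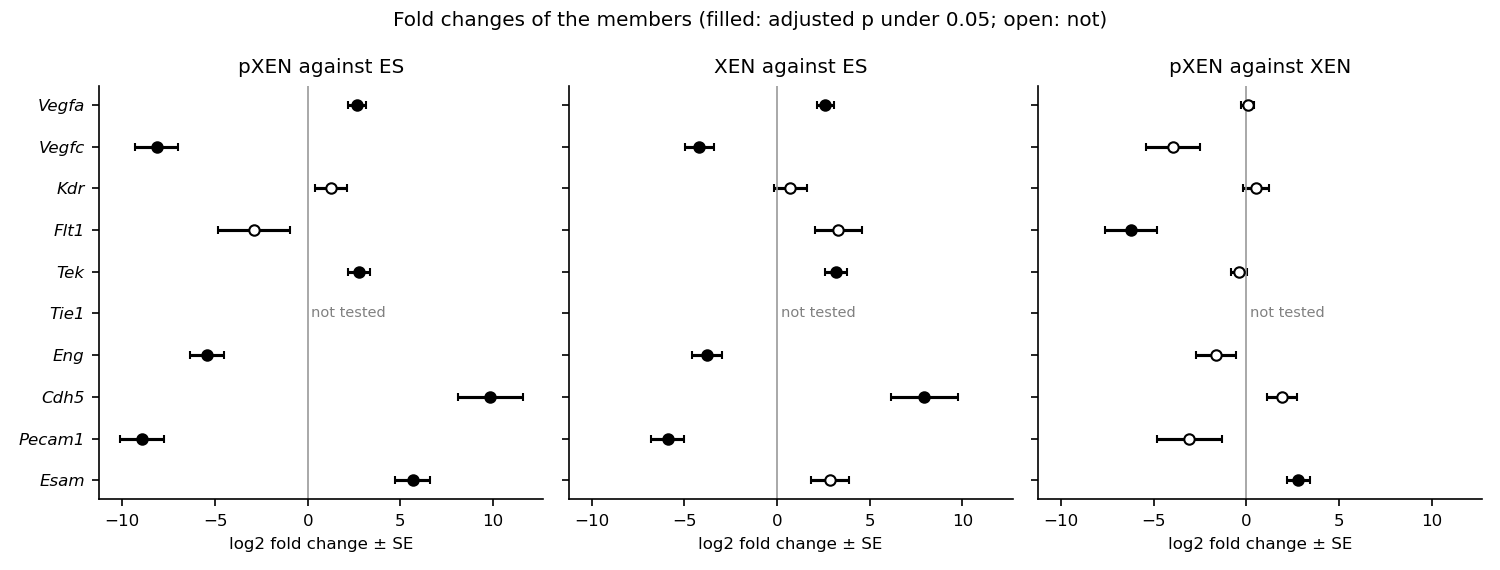
Fitted log2 fold change of each member (x axis, shared by the panels) with its standard error as a bar; filled points were called at an adjusted p under 0.05 and open points were not. Values for groups with 0 to 3 counts (such as Vegfc, Pecam1, Eng and Flt1 in pXEN or Cdh5 in ES) depend on the prior count of the fit and show a direction, not a size; in pXEN against XEN, Esam and Flt1 alone are filled.

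Levels of different members were compared per length, as RPKM (CPM divided by the kilobases of merged exons). In pXEN lines Cdh5 came first with 55.4 ± 36.2 RPKM (SD, n = 3), followed by Esam with 28.0 ± 12.3, Vegfa with 15.8 ± 6.06 and Tek with 14.0 ± 7.54. Neighbours in this order overlapped, and a gap separated all 4 from the fifth, Kdr, at 0.484 ± 0.212 RPKM. XEN lines had Tek first with 18.7 ± 7.52 RPKM, then Vegfa with 15.1 ± 5.31, Cdh5 with 14.8 ± 10.5 and Esam with 3.90 ± 3.78, and every neighbour in the XEN order overlapped with the next. In ES lines the order began with Pecam1 at 4.80 ± 2.42 RPKM (SD, n = 2), Vegfc at 4.65 ± 0.170 and Eng at 4.09 ± 2.86. Vegfa and Tek followed at 2.47 ± 1.35 and 2.07 ± 0.704 RPKM, these 5 overlapped in turn, and Cdh5 was last. The gene with the highest level per length in pXEN lines was thus the lowest in ES lines, and the highest in ES lines was at 0 in pXEN lines. With exons of every annotated transcript as the length, Vegfa and Tek changed places in pXEN lines, Vegfa and Cdh5 changed places in XEN lines, and Pecam1 was the third in ES lines.

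**Figure D3:**
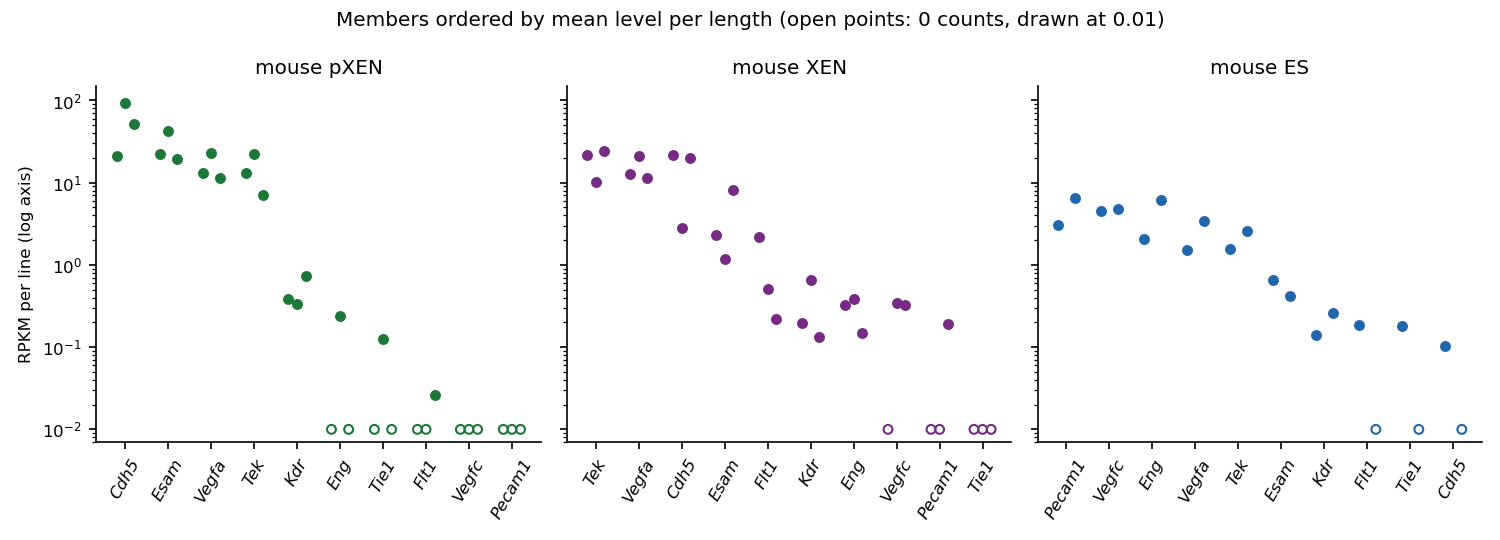
RPKM per line (log axis) of the members, ordered within each mouse group by the group mean, with open points at 0.01 for lines with 0 counts. In pXEN lines Cdh5, Esam, Vegfa and Tek stand apart from the remaining 6 members, while in ES lines Pecam1, Vegfc, Eng, Vegfa and Tek form the upper part of the order.

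Rat XENP lines were grown like the pXEN lines and carried a different selection of the members. Species, genome and annotation change together with the group, so rat and mouse levels were described and not tested. For this, CPM was recomputed over the 14386 symbols found in both species' tables, Rn45s left out. Of 9 members with at least 10 counts over the 7 lines, 7 did not overlap between rat and pXEN lines, 3 higher in rat and 4 higher in pXEN, and 6 of these also differed by at least 4-fold. Of all 9573 shared symbols with as many counts, 58.8% did not overlap (32.6% higher in rat and 26.2% higher in pXEN), and 23.8% did so by at least 4-fold. Over those of these symbols that had counts in every rat and every pXEN line, the median log2 ratio of rat to pXEN lines was 0.12. Symbols at 0 in any of these lines are not part of that median.

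Flt1 had the widest gap. The rat lines CX1, MAX2, MAX3 and MAX8 had 59.5, 374, 427 and 163 CPM of the rat totals, where the pXEN lines held 1 count among them. On the shared-symbol scale the rat lines ran from 61.3 to 438 CPM and the pXEN lines from 0 to 0.516 CPM, a ratio of 1424 with an exact 95% counting interval of 255 to 56314. Pecam1, at 0 in pXEN lines, was at 45.9, 72.1, 43.9 and 238 CPM in the rat lines, and on the shared scale at least 192-fold higher. MAX8 stood above the other 3, and the rat mean was 100.1 CPM with it and 54.0 CPM without it. Tie1 was present in every rat line, at 16.1, 2.77, 3.82 and 16.1 CPM, with a rat to pXEN ratio of 28.9 (exact 95% counting interval 7.55 to 246).

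In the other direction, Cdh5 was at 6.44, 7.39, 2.86 and 14.3 CPM in the rat lines, and its mean on the shared scale was 49.8-fold lower than in pXEN lines. Esam had 0, 3.70, 0 and 4.46 CPM and was 44.6-fold lower on that scale. The rat mean of Esam was 2.04 CPM with all lines and 1.23 CPM without MAX8. Kdr had 0 counts in all 4 rat lines, which made it at least 7.48-fold lower than in pXEN lines. Vegfa, with 29.8, 48.1, 44.9 and 64.3 CPM, was 2.07-fold lower on the shared scale, and its rat range of 30.7 to 66.0 CPM ended just below the pXEN range of 72.3 to 143 CPM. Tek was at 102, 54.5, 41.0 and 32.1 CPM and overlapped with the pXEN lines on the shared scale (33.0 to 105 CPM in rat, 59.9 to 186 CPM in pXEN). Eng, at 3.22, 1.85, 0.955 and 1.79 CPM, overlapped as well, and Vegfc had 2 counts over the rat lines and 0 over the pXEN lines. Vegfa and Tek were therefore abundant in both sets of lines, while the abundant junction genes were Cdh5 and Esam in pXEN lines and Pecam1 in rat lines. Orthologous genes can differ in annotated exons and in the share of reads that map, and 65.5% to 70.1% of the rat reads mapped to several places, so the size of these ratios is uncertain.

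**Figure D4:**
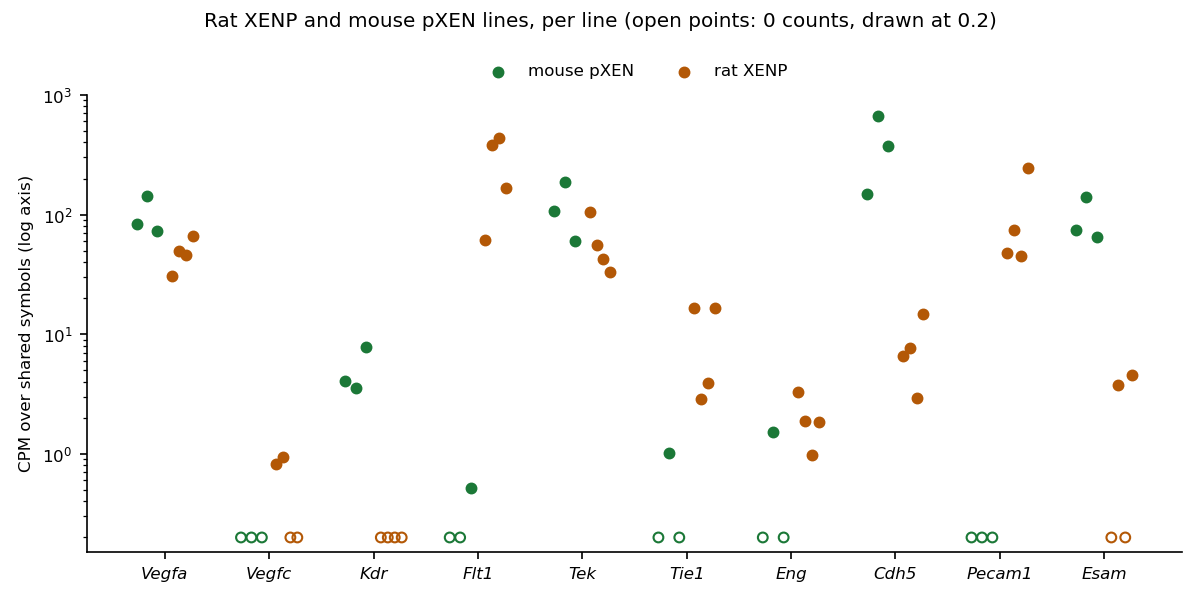
CPM over shared symbols (log axis) of each member in the 3 mouse pXEN and the 4 rat XENP lines, with 1 point per line and open points at 0.2 for lines with 0 counts. Flt1, Tie1 and Pecam1 are higher in all rat lines, Vegfa, Kdr, Cdh5 and Esam in all pXEN lines, and Tek and Eng overlap.

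The rat lines also differed among themselves. Flt1 was higher in both F344 lines (374 and 427 CPM) than in both WKY lines (59.5 and 163 CPM). Tie1 was higher in both WKY lines (16.1 and 16.1 CPM) than in both F344 lines (2.77 and 3.82 CPM). Such a split by strain was found for 2 of the 6 members with at least 10 counts over the rat lines and for 34.5% of all 9188 rat genes with as many, so the members' share is near the background. The strains, with 2 lines each, were not tested against each other. Passage differed as well: the WKY line CX1, which had the least Flt1, was at passages 38 and 40. The other rat lines were at passages from 10 to 17, and the part of passage was not tested.

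Other genes of the same pathways were taken from lists of ligands, receptors and regulators. Beside the counts of each list below stand the shares over all genes tested. In pXEN against ES lines 18.2% were called higher and 17.8% lower. The shares were 20.7% and 17.8% in XEN against ES lines, and 0.918% and 3.63% in pXEN against XEN lines. Of 16 further VEGF and angiopoietin genes in the mouse tables, 10 could be tested. In pXEN against ES lines 3 were higher and none lower: Epas1, a hypoxia-regulated transcription factor of endothelium (394 ± 75.6 CPM, SD, n = 3, against 41.6 ± 1.25 CPM, n = 2, adjusted p = 8.72e-06), Nrp1, a co-receptor of Kdr (5.79 against 0.400 CPM, adjusted p = 0.00478), and Ptprb, a phosphatase that acts on Tek (14.0 against 0.400 CPM, adjusted p = 0.0481). In XEN against ES lines Epas1 (346 CPM, adjusted p = 1.37e-05) and Nrp1 (21.0 CPM, adjusted p = 0.000314) were higher, and Nrp2, a co-receptor for Vegfc, was lower (10.2 against 65.4 CPM, adjusted p = 0.0314). Nrp1 was the gene of this list that was called between the endoderm groups, lower in pXEN than in XEN lines by 1.86 on the log2 scale (adjusted p = 0.0349). The ligands of Tek were scarce: Angpt1 and Angpt4 had 0 counts in pXEN and ES lines and 4 counts and 1 count in XEN lines, and Angpt2 had 1, 7 and 1 counts in pXEN, XEN and ES lines. Flt4, the main receptor of Vegfc, had 0, 2 and 10 counts in the same order.

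Of 12 genes of the endoglin receptor complex and its BMP ligands, 8 could be tested, and against ES lines 4 were higher in each endoderm group, with none lower. Tgfbr2, the type II receptor of TGF-beta, gave log2 fold changes of 5.37 and 4.21 (adjusted p = 0.00169 and 0.00676), and Tgfbr3, the co-receptor betaglycan, which is structurally related to Eng, gave 4.95 and 4.80 (adjusted p = 0.00119 and 0.00146). Bmpr2 (2.18 and 1.77, adjusted p = 0.000100 and 0.000386) and Tgfbr1 (0.91 in both, adjusted p = 0.0224 and 0.0219) were higher as well. Eng itself was lower in these lines. Gdf2, which codes for the Eng ligand BMP9, had 0 counts in all 12 lines, and Acvrl1, the receptor that pairs with Eng in endothelium, had 0 counts in pXEN and ES lines and 3 counts in XEN lines.

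Among 38 further surface, secreted and Notch genes of endothelium, 18 could be tested. In pXEN against ES lines 4 were higher and 9 lower, and in XEN against ES lines 5 were higher and 8 lower, with a median log2 fold change of -2.22 and -1.45. Ramp2, a partner of the adrenomedullin receptor (4.69 and 4.10, adjusted p = 4.52e-05 and 0.000126), and Egfl7, a secreted vessel protein (2.85 and 2.21, adjusted p = 0.000249 and 0.00116), were higher in both. Jam2, a tight junction adhesion protein like Esam (-7.37 and -5.41, adjusted p = 1.25e-05 and 3.52e-05), and Mmrn2, an endothelial matrix protein (43.7 CPM in ES lines, 7 counts in pXEN and 2 in XEN lines, adjusted p = 5.50e-05 and 3.44e-05), were lower in both. Between the endoderm groups 1 was called: Jag1, a Notch ligand, lower in pXEN than in XEN lines by 2.24 on the log2 scale (adjusted p = 0.0189).

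Of those 38 genes, 14 had 0 counts in every pXEN line, 8 in every XEN line and 10 in every ES line, and 10 of 35 in every rat line. Over all symbols of the tables, 43.5%, 39.4%, 37.4% and 33.8% were at 0 in every line of these groups, so the list held no larger share of undetected genes than the tables as a whole. The list held genes at 0 and genes well above it. Emcn, Aplnr and Sele were at 0 in all 12 lines, and Cd93 and Cldn5 were at 0 in all pXEN and XEN lines. Ramp2 and Egfl7, in contrast, had means of 57.8 and 85.4 CPM in pXEN lines and 38.4 and 54.9 CPM in XEN lines. The summed level of the 38 genes was 172 to 278 CPM in pXEN lines, 214 to 256 CPM in XEN lines and 419 to 518 CPM in ES lines. Blood cell markers had a sum over 15 genes of 4.94 to 5.69 CPM in pXEN, 12.9 to 15.2 CPM in XEN and 7.40 to 15.6 CPM in ES lines. Of these, 2 could be tested. Runx1, with 9, 65 and 1 counts in pXEN, XEN and ES lines, was called higher in XEN than in ES lines and lower in pXEN than in XEN lines. Cd68 was called lower in pXEN than in ES lines. Ptprc (CD45) was at 0 in all pXEN and ES lines and had 1 count in XEN lines. In rat lines 9 of the markers summed to 12.4 to 29.5 CPM, with Klf1 at 6.68 to 17.0 CPM. All 11 endoderm markers, a list chosen with earlier results of these data known, were called higher in each endoderm group against ES lines. These calls and the sums above are unlike measures and are not set against each other. The name endothelial-type describes where these 10 genes are best known, and the identity of the lines was not tested.

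Transcription factors that act on such genes in endothelium also differed from ES lines. Of 20, 9 could be tested, and 7 were higher and 1 lower than in ES lines, in pXEN as in XEN lines. Over all genes tested, 18.2% were higher and 17.8% lower in pXEN, and 20.7% and 17.8% in XEN lines. The 7 were Sox17, Sox7, Ets1, Nr2f2, Prox1, Mef2c and Foxc1. Each had between 0 and 6 counts in the ES lines and passed the filter on low counts through the endoderm lines. The count of 7 therefore describes these factors and supports nothing more. Sox17 (337 and 222 against 0.822 CPM, adjusted p = 6.06e-06 and 9.41e-06) and Sox7 (56.5 and 56.5 against 1.18 CPM, adjusted p = 0.000494 and 0.000537) are also factors of extraembryonic endoderm. Ets1 (36.9 and 22.8 CPM, 3 counts in ES lines, adjusted p = 5.39e-05 and 0.000155) and Nr2f2, a venous factor (13.2 and 9.80 CPM, 3 counts in ES lines, adjusted p = 0.000376 and 0.000816), were higher as well. Klf2, a flow-responsive factor of endothelium that is also a pluripotency factor, was lower by 6.49 and 4.73 on the log2 scale (adjusted p = 3.93e-06 and 9.41e-06). Other factors of blood and vessel formation were at or near 0: Etv2 had 1, 0 and 5 counts over pXEN, XEN and ES lines, Erg 1, 0 and 0, Fli1 0, 5 and 0, Tal1 1, 0 and 4, and Sox18 0, 0 and 2.

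Of 11 further genes of cell junctions, other cadherins and junction proteins inside the cell, 10 could be tested. Afadin, listed as Mllt4, was higher in both endoderm groups than in ES lines (log2 fold change 1.42 and 1.24, adjusted p = 0.00106 and 0.00236). The epithelial cadherin Cdh1 was lower in both (-5.91 and -6.07, adjusted p = 0.00278 and 0.00290), so Cdh5 and Cdh1 differed from ES lines in opposite directions. Jup, plakoglobin, was lower in pXEN than in ES lines by 0.89 (adjusted p = 0.0343). Cdh2 had 1 count in pXEN lines and was lower there than in ES lines (22 counts, adjusted p = 0.00201) and than in XEN lines (38 counts, adjusted p = 0.0101). Fibroblasts are a known source of Cdh2, the fibroblast marker sums given above differ between pXEN and XEN lines, and their part in the Cdh2 levels was not tested.

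**Figure D5:**
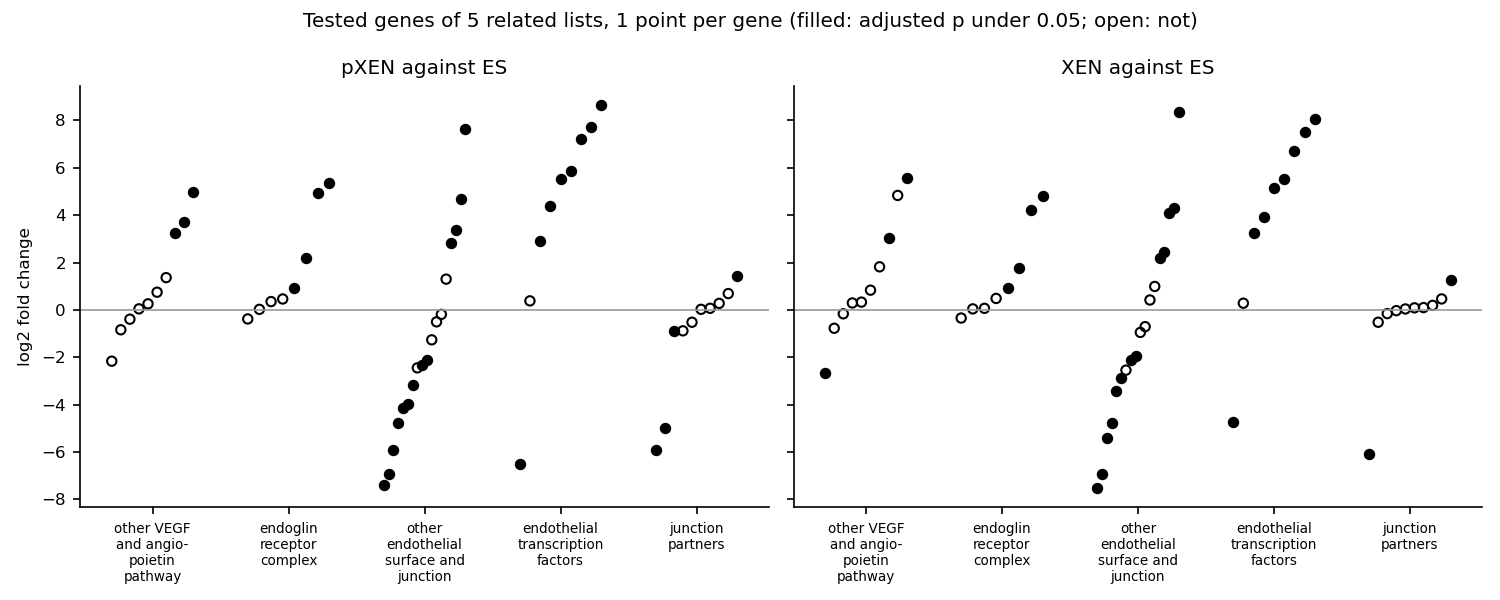
Fitted log2 fold change (y axis) of the tested genes of 5 related lists, with 1 point per gene, filled where the adjusted p was under 0.05. Most filled points of the transcription factor and endoglin complex lists lie above 0, and most of those of the surface and junction list lie below 0, in pXEN (left) and XEN (right) against ES lines.

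The genes whose levels followed each member most closely over the 8 mouse lines were listed by Pearson's r of log2 CPM. These lines fall into 3 groups that differ at many genes, and lines of a group share their derivation and culture, so r is given as a description. Esam was followed by Nostrin (r = 0.987), Clu (0.987) and Tnfrsf1a (0.985), and Cdh5 by Bag5, Cant1 and Helz2 (0.988 to 0.989). Nostrin is known as a partner of the endothelial nitric oxide synthase. The gene of that synthase, Nos3, had 7, 6 and 20 counts in pXEN, XEN and ES lines and so did not follow Esam. Tek was followed by Smim14, Vti1a and Tm9sf3 (0.985 to 0.992), and Vegfa by Rnf103, Mtmr10 and Akt1s1 (0.981 to 0.985). On the ES-high side, Vegfc was followed by Ttn, Prpsap2 and Itga9 (0.992 to 0.998), Eng by Hist3h2ba, Lysmd2 and Dmd (0.970 to 0.978), and Pecam1 by Dclk2, Sgk2 and Phkg1 (0.996 for the last). Flt1 was followed by Tjap1, Ubald1 and Dbn1 (0.964 to 0.968) and Kdr by Eef2kmt, Dcbld2 and Nxt2 (0.907 to 0.934). Among the members themselves, Vegfc and Pecam1 were the closest pair (r = 0.969) and Vegfc and Cdh5 the most opposed (r = -0.956).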

How the data were processed

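RNA was depleted of ribosomal RNA and sequenced as directional paired-end libraries, per the labels' protocols. The authors deposited 1 table of read counts per gene and line, whole numbers in 3 columns (unstranded and each strand). Per the submitters' processing notes, the tools were CASAVA 1.8.2, Trimmomatic 0.33, STAR 2.5.1 and DESeq2, with mm10 and rn6 as builds; the annotation used for counting was not stated there. Column 4, the reverse strand, was used, since it held 98.9% to 99.3% of strand-assigned gene counts. Read-class rows (unmapped, multimapping, no feature, ambiguous) were 73.4% to 78.3% of reads in mouse and 89.7% to 91.8% in rat tables, and were left out.

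Mouse counts were fitted over all 8 lines with edgeR 4.0.16 in R 4.3.3 (filterByExpr with a minimum count of 10, TMM scaling, robust quasi-likelihood test, Benjamini-Hochberg adjustment, threshold 0.05); no term for sex or line number was used. The fit was tested on simulated data. Mouse CPM uses TMM-scaled totals and rat CPM the totals of gene counts. Lengths and gene coordinates are from GENCODE vM21 (GRCm38), matched by symbol for 23376 of 24411 mouse symbols; promoters are from RefSeq (GRCm38.p6). A group at 0 counts was set to a floor of 3 counts over the group, and a group at 1 to 3 counts got a ratio with an exact 95% interval; both cover counting error only, and the labels name no molecular identifiers. Alternatives were DESeq2 1.42.0, upper-quartile scaling, no count filter, unstranded counts, no Rn45s, a sex term, fits of only the groups compared, and each line left out in turn. Upper-quartile scaling shifted the median log2 fold change of all genes by -0.10 in pXEN and -0.11 in XEN against ES lines.

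The members and gene lists were chosen with earlier results of these data known. All members are named; of each other list up to 4 called genes with the smallest p in a comparison, those called in all comparisons first, or all if 5 or fewer were called (marker lists of other cell types are given as sums and counts), and for each tested member the 3 genes with the highest r. Genes named beyond this rule (Angpt1, Angpt2, Angpt4, Flt4, Gdf2, Acvrl1, Emcn, Aplnr, Sele, Cd93, Cldn5, Nos3, Ptprc, Runx1, Cd68, Klf1, Etv2, Erg, Fli1, Tal1, Sox18, Prox1, Mef2c, Foxc1 and the fibroblast genes at 0) and the split of rat lines by strain were chosen after their values were seen.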

Additional observations from a re-analysis of the deposited data

Results flagged for a closer look

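Among the 4 rat lines, the Pecam1 level of MAX8, 238 CPM, lay far above those of the other 3 (43.9 to 72.1 CPM): the gap to the next line was 0.855 of the whole range, above the critical value of 0.829 for 4 samples. Chance gives such a gap in about 1 of 20 groups, and 9 members with any rat count were examined this way.

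For Eng, reads were also counted on the strand opposite to the gene, a column that no comparison here used: 12 counts over the pXEN lines, 25 over the XEN lines and 14 over the ES lines, where the gene's own strand had 3, 10 and 74. The 3′ end of Eng overlaps Fpgs, which runs the other way and had 62 to 147 counts per mouse line. Whether the opposite-strand counts come from Fpgs was not tested. With unstranded counts, the calls for Eng against ES lines had the same direction and stayed past the threshold.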

How the results depend on the processing

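Under the alternatives, 291 of 316 member fold changes kept their direction and their side of the threshold, 15 lost a call, 5 gained one and 5 changed sign. All 60 rat levels stayed within 1 SD of the 4 lines. Leaving out 1 of 4 lines cannot move a mean by more than that, so for those settings the result was fixed beforehand. The rat mean of Pecam1, for example, went from 100.1 to 54.0 CPM without MAX8. The 5 that changed sign were differences that were not called: Flt1 in pXEN against ES lines went to 1.83 without ES2, and Vegfa in pXEN against XEN lines to -0.044 with a sex term, -0.30 without pXEN4, -0.06 without XEN1 and -0.11 without XEN5. Over all lines left out in turn, these log2 fold changes ran from -4.69 to 1.83 and from -0.30 to 0.38. The 2 members called between pXEN and XEN lines became 1 with no count filter, 1 with a sex term and 0 when these groups alone were fitted, where Flt1 did not pass the filter, and 0 to 2 when each line was left out. Leaving out each line gave 6 to 7 members in pXEN against ES and 4 to 7 in XEN against ES lines. The counts of all genes called, 3914, 4188 and 496 in the order pXEN against ES, XEN against ES and pXEN against XEN, then ranged over 2543 to 3579, 2474 to 3992 and 322 to 448, with the lowest values without ES2, without ES2 and without pXEN2. The cause was not tested. With ES2 or ES3 left out, the remaining ES line is assumed to vary like the lines of the other groups.

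Tie1 had too few mouse counts for any of the fits with a filter, and Pecam1 in pXEN against XEN lines gave no value without XEN5, since both groups were then at 0. No paired analysis was possible because the lines were derived separately and any 2 of the mouse groups, the only ones tested, share at most 1 line number. Few counts in at least 1 mouse group limit Vegfc, Kdr, Flt1, Tie1, Eng, Cdh5, Pecam1 and Esam, and the ES group has 2 lines.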
